A study of Drosophila melanogaster with 6 samples.

Results

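The genes described are those of the Mediator core and of the basal transcription machinery of *Drosophila melanogaster*: the Mediator subunits named MED, TFIID with the TATA-binding protein and its relatives, the general transcription factors, RNA polymerase II, and the kinases, cyclins and elongation factors that act on the polymerase's tail. They were taken by a rule on gene names, set with earlier results of these data known. It took every row of the count table whose symbol begins with MED, Taf or TfII followed by a digit or letter, or with Polr2. It added Tbp, Trf, Trf2, Cdk7, CycH, Mat1, Cdk9, CycT, Cdk12, CycK, spt4, Spt5, Spt6 and Fcp1, and left out Taf12L. The rule found 75 of the 17562 rows, namely 25 Mediator subunits, 17 genes of TFIID and the TBP family, 9 general transcription factors, 13 polymerase subunits and 11 kinase, cyclin and elongation genes. Whole larvae at the wandering stage, which ends the last instar, were profiled by RNA-seq. The tested animals were homozygous for cdk8K185, a null allele of Cdk8 whose deletion also takes part of the neighbouring gene I-2, and the controls were of the strain w1118. Each genotype had 3 libraries, each made from a pool of 10 larvae. The labels give no age beyond the stage, no sex and no agent for either genotype. Homozygotes of this allele live into the pupal stage on CDK8 supplied by their mothers, and the allele was received on a chromosome with FRT80B. Per the study's methods the stock was rebalanced over TM6B and repeatedly crossed out to w1118. The genotypes differ at I-2 beside Cdk8, and whether they differ elsewhere was not tested. The labels do not say whether the pools came from separate cultures, and p-values therefore measure the spread between these pools.

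Mediator is a bridge between transcription factors bound at enhancers and RNA polymerase II at the promoter. Its core is divided into a head, a middle and a tail module, and CDK8 with CycC, MED12 and MED13 forms a separable module that docks on this core. TFIID recognises the promoter, the other general factors and the polymerase assemble on it, and the kinases CDK7, CDK9 and CDK12 then phosphorylate the C-terminal domain (CTD) of the largest polymerase subunit as transcription starts and lengthens. The comparison of cdk8K185 with w1118 shows at the level of transcripts how the partners of the CDK8 module stood in larvae homozygous for this allele.

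The cdk8K185 libraries held 9208564 to 11724703 counts and the w1118 libraries held 10428250 to 10973759 counts. Transcripts of Cdk8 gave 4.73, 6.46 and 7.22 CPM (counts scaled to library size) in cdk8K185, against 10.1, 9.53 and 8.83 CPM in w1118, and those of I-2 averaged 5.38 CPM in cdk8K185 and 31.5 CPM in w1118. The direction goes with the labels for both genes, but the libraries labelled cdk8K185 kept Cdk8 transcripts at 0.646 times the control level, so the Cdk8 counts alone do not show a null, and which exons these reads come from was not tested. Over the whole table, edgeR's quasi-likelihood test called 3919 of 10632 genes at an adjusted p under 0.05 (36.9%), 2114 higher in cdk8K185 (19.9%) and 1805 lower (17.0%). Higher genes made up 53.9% of these calls with TMM scaling and 74.2% with library totals alone, a scaling that shifted the log2 fold changes of all genes by a median of 0.22. All tested markers of dividing cells and of salivary gland glue were called. The fat body, central nervous system, imaginal disc, midgut and muscle lists each held a smaller share of calls than the 36.9% of all genes. All 12 markers of dividing cells were higher in cdk8K185 (summed level 808 to 868 CPM in cdk8K185, against 385 to 401 CPM in w1118), and all 7 salivary gland glue genes were lower (2113 to 3276 CPM in cdk8K185, against 30936 to 37955 CPM in w1118). Of the markers of the fat body, 2 of 6 were lower, of those of the central nervous system 1 of 10 was higher and 2 were lower, and of those of imaginal discs 1 of 12 was higher and 1 lower. The summed fat body level was also lower without overlap, at 19983 to 42670 CPM in cdk8K185, against 67859 to 73800 CPM in w1118. That of the central nervous system list was 236 to 244 CPM in cdk8K185, against 370 to 403 CPM in w1118. The sums of the imaginal disc, midgut and muscle lists overlapped. Of 5 midgut markers 1 was higher, and 0 of 6 body wall muscle markers passed the edgeR test (0 at an unadjusted p under 0.05, and 0 with DESeq2 or limma-voom). Defining markers of each of these tissues were present, so the libraries hold the mixed tissues of a whole larva, and fewer cells of a type cannot be told apart from less RNA per cell. The part of these shifts in the results below was not tested.

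The Mediator core and the basal machinery stayed close to their control levels. Of the 75 genes, 72 passed the filter on low counts, and 10 of these 72 passed the test (13.9%, against 36.9% of all genes tested). Taf6, MED21, MED19, Cdk9 and CycK were lower in cdk8K185, which is 5 genes beside a background of 17.0%, and Polr2B, CycH, Taf2, Fcp1 and MED15 were higher, which is 5 beside 19.9%. The estimates ran from a log2 fold change of -0.63 for Taf6 to 0.45 for Polr2B, with 37 of 72 above 0 and a median of 0.02, which is also the median over all genes tested. With library totals 12 were higher and 1 was lower, and the median was 0.23, beside 0.24 over all genes tested. No tested gene of the machinery reached a 2-fold change, whereas 2376 of 10632 genes did so over the whole table. Taf12L, which the rule leaves out, went beyond 2-fold and was lower in cdk8K185 (log2 fold change -1.70, edgeR adjusted p 0.0123). Within 1.5-fold lay 70 of the 72 estimates, against 64.0% of all genes tested.

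**Figure D1:**
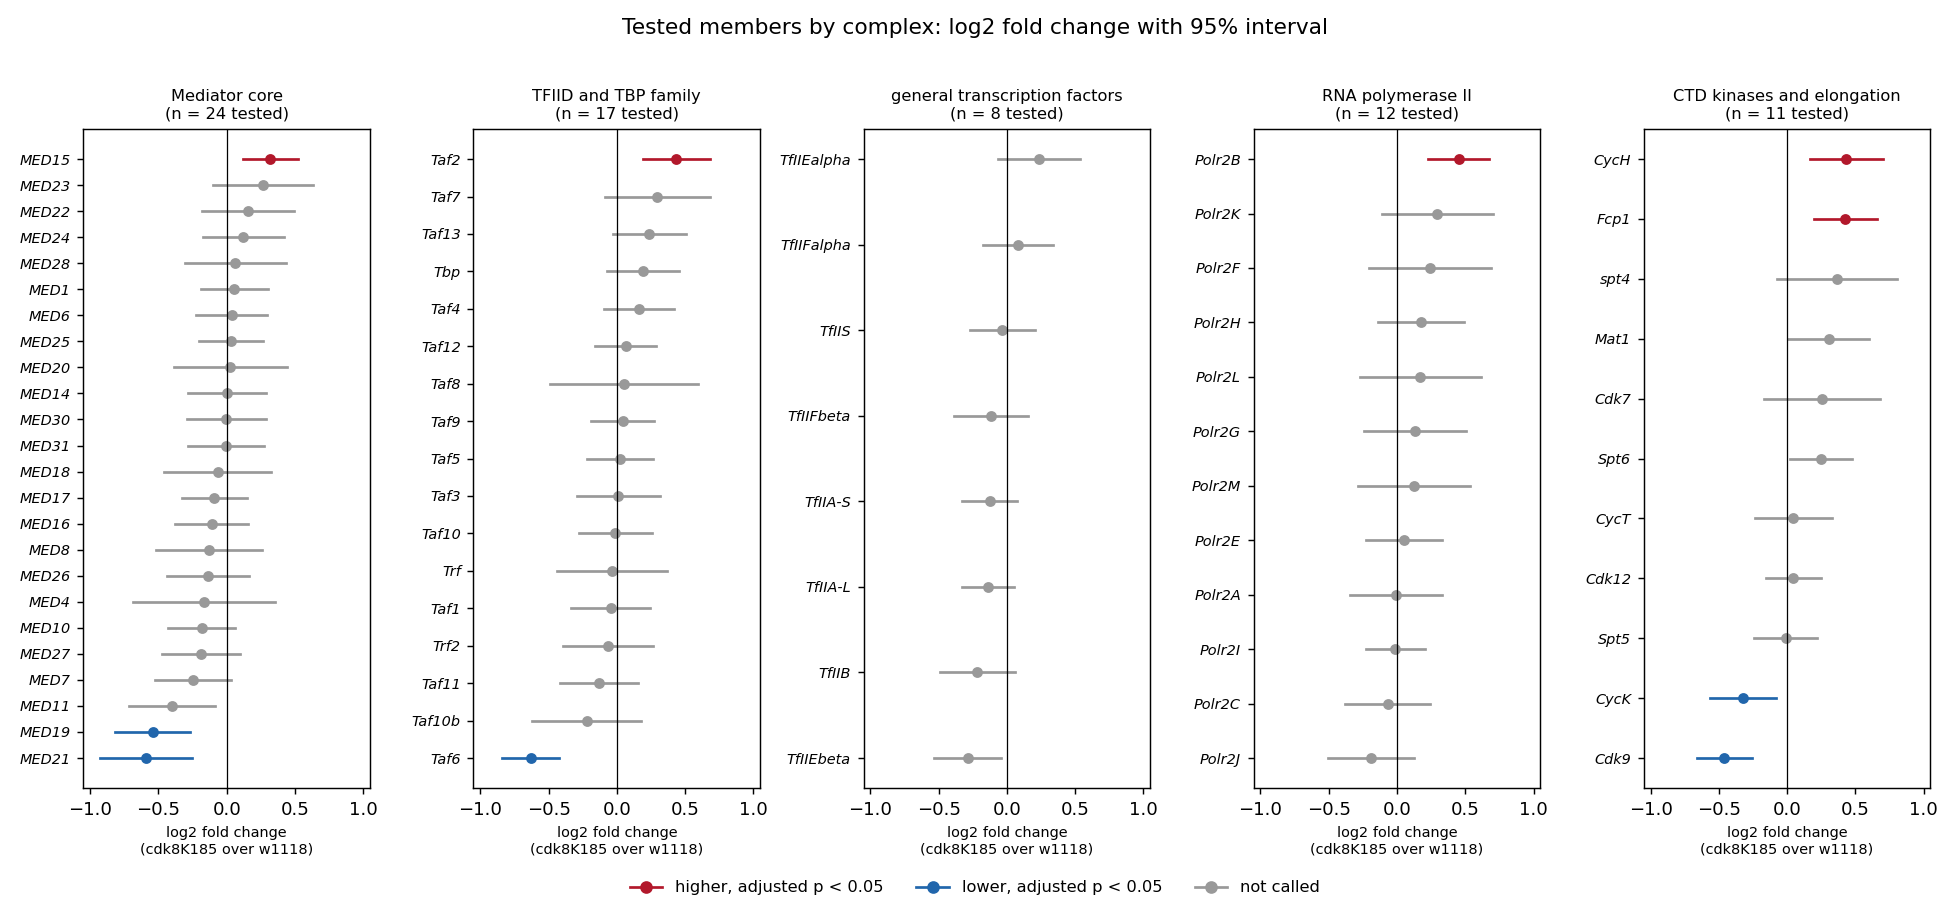
Log2 fold changes of the 72 tested genes of the machinery by complex (x axis, cdk8K185 over w1118), each with its 95% interval as a horizontal line. Red points are the 5 genes called higher, blue points the 5 called lower and grey points the others. All 72 intervals lie between -1 and 1.

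The precision of these estimates allowed a statement on size as well. For all 72 tested genes, the 95% interval of the log2 fold change lay inside -1 to 1, so that a 2-fold change in either direction fell outside it. The same held for 6479 of 10632 genes tested (60.9%). For 21 of the 72 genes the 2 sets of 3 libraries lay apart, 10 with all cdk8K185 libraries above and 11 with all of them below, whereas the sets lay apart for 53.6% of all genes tested. At an unadjusted p under 0.05 in the edgeR test, 14 of the 72 and 5152 of all genes would have passed. The summed level of all 75 genes was 2504, 2624 and 2651 CPM in cdk8K185, against 2659, 2561 and 2474 CPM in w1118, and these ranges overlap.

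**Figure D2:**
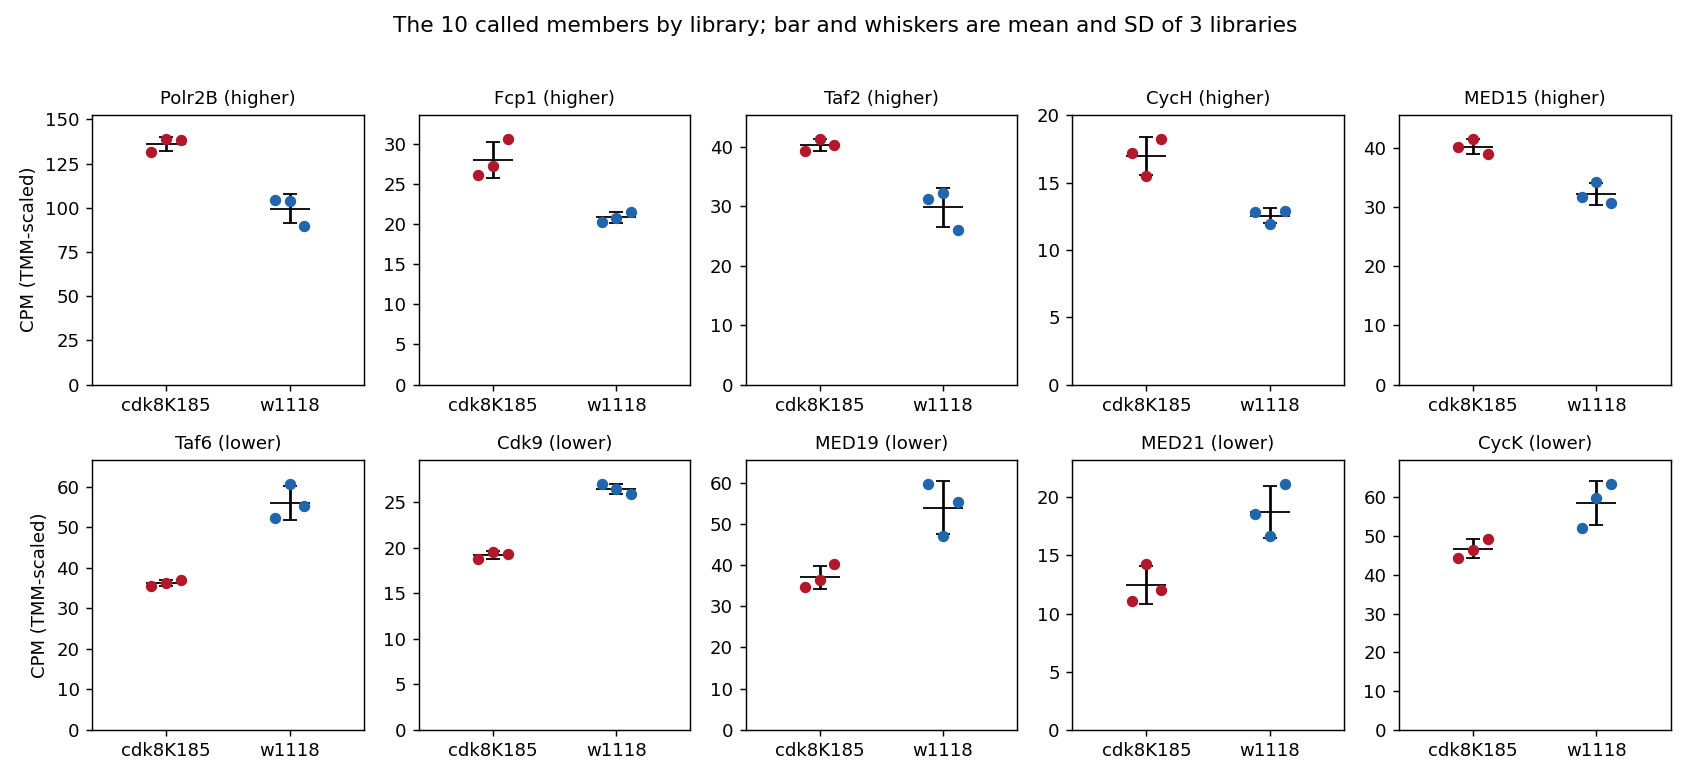
CPM (y axis, TMM-scaled, from 0) of the 10 called genes in each library, with cdk8K185 on the left and w1118 on the right of each panel; bars and whiskers are the mean and SD of 3 libraries. In each panel the 3 points of one genotype lie wholly above the 3 of the other.

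In the Mediator core, MED15 was the single subunit that rose, and MED19 and MED21 fell, which is 3 of 24 tested (12.5%, against 36.9% of all genes). The median log2 fold change of the core was -0.04. With TMM scaling 15 of the 24 estimates lay below 0, while with library totals 20 of the 24 lay above 0, so the direction of the core as a whole depends on the scaling. By module, 0 were higher and 1 was lower among 10 head subunits, 0 and 1 among 7 tested middle subunits, and 1 and 0 among 7 tail subunits.

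MED21 (FBgn0040020, 3L:25114924-25115946, minus strand) encodes a middle subunit that forms, with MED7, a flexible hinge of the complex in yeast. It gave 11.1, 14.3 and 12.03 CPM in cdk8K185, against 18.5, 16.7 and 21.1 CPM in w1118. Every cdk8K185 library was below every w1118 library, with a log2 fold change of -0.59 (SE 0.14, edgeR adjusted p 0.0172). MED7 stood at 15.7, 19.2 and 17.3 CPM in cdk8K185 and at 21.2, 18.9 and 21.97 CPM in w1118 (log2 fold change -0.25, edgeR adjusted p 0.135), and here 1 cdk8K185 library lay within the control range. The call of MED21 was lost without cdk8K185 replicate 1 (edgeR adjusted p 0.078), without cdk8K185 replicate 3 (0.0668), without w1118 replicate 3 (0.0507) and with library totals (0.0981). Of its exon bases, 26.6% are shared with Set1 on the other strand, and the use of strand in the counting is not given in the sources used here.

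MED19 (FBgn0036761, 3L:17843725-17846501, minus strand), counted here with the head, encodes a subunit that Hox proteins contact in *Drosophila*. Its levels were 34.6, 36.3 and 40.2 CPM in cdk8K185, against 59.6, 47.0 and 55.4 CPM in w1118. The highest mutant library was thus below the lowest control library, and the log2 fold change was -0.54 (SE 0.12, edgeR adjusted p 0.0103). Without cdk8K185 replicate 1 the adjusted p was 0.0552, and with library totals it was 0.0959. MED11, a small head subunit, had 15.5, 13.6 and 15.1 CPM in cdk8K185, against 16.8, 19.4 and 22.4 CPM in w1118. These libraries did not overlap either, but the estimate of -0.40 (SE 0.14) did not pass the test (edgeR adjusted p 0.0529). It passed with RLE size factors (0.0383), with at least 10 counts in every library (0.033) and without w1118 replicate 1 (0.0299).

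MED15 (FBgn0027592, 2L:473013-476170, plus strand) encodes a tail subunit to which activators such as SREBP bind. Its libraries gave 40.2, 41.5 and 39.0 CPM in cdk8K185, against 31.8, 34.3 and 30.7 CPM in w1118. No library of one genotype reached into the range of the other, and the log2 fold change was 0.32 (SE 0.09, edgeR adjusted p 0.0244). The call was lost with DESeq2 (adjusted p 0.0791) and without cdk8K185 replicate 1, cdk8K185 replicate 2, w1118 replicate 1 or w1118 replicate 3 (edgeR adjusted p 0.0528 to 0.0668). MED23, another tail subunit, had 26.3, 30.9 and 29.5 CPM in cdk8K185 and 29.7, 20.9 and 21.3 CPM in w1118, with w1118 replicate 1 inside the mutant range (log2 fold change 0.27, SE 0.16, edgeR adjusted p 0.209). Without that library MED23 was called (edgeR adjusted p 0.0283).

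The scaffold subunits MED14 and MED17, on which the core is built, gave intervals around 0. MED14 stood at 58.1, 58.4 and 65.3 CPM in cdk8K185, against 68.7, 61.3 and 51.8 CPM in w1118, with means of 60.6 CPM in both genotypes and an interval of the log2 fold change from -0.29 to 0.29. MED17 averaged 25.1 ± 1.74 CPM in cdk8K185 and 26.7 ± 1.91 CPM in w1118 (SD, n = 3 each), with an interval from -0.33 to 0.15. The libraries overlapped for both genes. The remaining subunit of the core that the naming rule leaves out, MED29, is annotated as ix and had a log2 fold change of -0.29 (edgeR adjusted p 0.179). Of the CDK8 module, Cdk8 itself was lower (log2 fold change -0.63, edgeR adjusted p 0.0344), while CycC (0.10), kto, which encodes MED12 (0.36, adjusted p 0.0644), and skd, which encodes MED13 (-0.30), were not called.

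In TFIID and the TBP family, Taf2 rose and Taf6 fell among 17 genes tested (11.8%, against 36.9% of all genes), and the median log2 fold change was 0.02. With library totals 4 genes were higher and 1 was lower. Taf6 showed the lowest estimate of the whole machinery. The gene (FBgn0010417, 3L:19599088-19601382, plus strand) encodes a histone-fold subunit that pairs with Taf9 inside TFIID. It had 35.4, 36.2 and 36.9 CPM in cdk8K185, against 52.2, 60.5 and 55.2 CPM in w1118, so that the mutant libraries lay close together and well below the controls. Its log2 fold change was -0.63 (SE 0.09, edgeR adjusted p 0.00193), and it was called in all 13 alternatives. Taf9 gave 17.7, 17.0 and 18.9 CPM in cdk8K185, against 17.8, 17.3 and 17.1 CPM in w1118, and its interval of -0.19 to 0.27 spans 0.

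Taf2 (FBgn0011836, 3L:9884411-9888683, minus strand) encodes a large subunit that reads the initiator element together with Taf1. It stood at 39.3, 41.2 and 40.3 CPM in cdk8K185, against 31.2, 32.2 and 25.95 CPM in w1118. All mutant libraries were above all control libraries (log2 fold change 0.43 ± 0.10 as SE, edgeR adjusted p 0.0159), and the call was made in all 13 alternatives. Taf2 lies 45.7 kb from Cdk8. Of the 3 genes of the machinery within 2 Mb of Cdk8, it was the one called, beside 38.8% of all genes tested on 3L. MED24 (log2 fold change 0.12) and TfIIEalpha (0.23) were not called. An effect of the DNA linked to the allele cannot be told apart from one of the genotype. Taf1, the largest TFIID subunit, was at 77.2, 77.6 and 81.4 CPM in cdk8K185 and at 95.5, 78.1 and 70.2 CPM in w1118, a control range that encloses the mutant one.

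TATA-binding protein and its relatives were not called. Tbp had 14.7, 16.1 and 17.0 CPM in cdk8K185, against 12.9, 14.4 and 14.5 CPM in w1118, libraries that did not overlap but differed by a log2 fold change of 0.19 (SE 0.11, edgeR adjusted p 0.21). Trf2, a TBP relative used at promoters without a TATA box, had 95.8, 103 and 89.8 CPM in cdk8K185, against 121, 93.6 and 86.6 CPM in w1118 (log2 fold change -0.06, edgeR adjusted p 0.738). Trf, the relative that serves RNA polymerase III in flies, was the lowest tested gene of the machinery by CPM, with 5.97 ± 0.816 CPM in cdk8K185 and 6.10 ± 0.263 CPM in w1118 (SD, n = 3 each). Of the TAFs not called, Taf7, which binds Taf1, had the highest estimate (0.30, interval -0.09 to 0.68) and Taf10b, one of the pair of fly TAF10 genes, the lowest (-0.22, interval -0.62 to 0.18).

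None of the 8 tested general transcription factors passed the edgeR test, against 36.9% of all genes, with 1 of the 8 and 5152 of all 10632 genes at an unadjusted p under 0.05. DESeq2 and limma-voom called 0 as well. With TMM scaling 6 of 8 estimates were below 0 and the median was -0.12, but with library totals 7 of 8 were above 0. RLE size factors called 1, TfIIEbeta (edgeR adjusted p 0.0425), and library totals called 1, TfIIEalpha (edgeR adjusted p 0.0268). The subunits of TFIIE, which brings TFIIH to the promoter, were the extremes of this group. TfIIEalpha gave 29.6, 30.3 and 33.6 CPM in cdk8K185, against 22.1, 28.7 and 28.8 CPM in w1118 (log2 fold change 0.23, edgeR adjusted p 0.182). TfIIEbeta gave 15.03, 14.9 and 17.1 CPM in cdk8K185, against 19.7, 18.9 and 18.8 CPM in w1118 (log2 fold change -0.29, edgeR adjusted p 0.0675). For each of these subunits the genotypes did not overlap (53.6% of all genes), with the mutant libraries above the controls for TfIIEalpha and below them for TfIIEbeta. The remaining 6 factors, which include TfIIB, the TFIIA subunits TfIIA-L and TfIIA-S, those of TFIIF and the elongation factor TfIIS, had estimates from -0.22 to 0.08.

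Among the subunits of RNA polymerase II, Polr2B was the single gene called of 12 tested (8.33%, against 36.9% of all genes), and the median log2 fold change was 0.13. Polr2B (FBgn0262955, 3R:14125791-14130111, plus strand) forms the catalytic cleft with Polr2A. It had 131, 139 and 138 CPM in cdk8K185, against 105, 104 and 89.8 CPM in w1118, and so the lowest mutant library was above the highest control. The means were 136 ± 4.07 CPM in cdk8K185 and 99.4 ± 8.33 CPM in w1118 (SD, n = 3 each), a log2 fold change of 0.45 ± 0.09 (SE, edgeR adjusted p 0.00954), and the gene was called in all 13 alternatives. Polr2A, the largest subunit, whose tail the CTD kinases phosphorylate, had 154, 135 and 146 CPM in cdk8K185, against 173, 144 and 120 CPM in w1118. The control libraries spread more widely than the mutant ones and enclose them, with an interval of the log2 fold change from -0.34 to 0.33.

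The summed level of the polymerase subunits was 445, 453 and 473 CPM in cdk8K185, against 422, 420 and 391 CPM in w1118, without overlap, but with Polr2B left out the sums of 314 to 335 CPM in cdk8K185 and 301 to 318 CPM in w1118 overlapped. The 5 subunits that polymerases I, II and III share (Polr2E, Polr2F, Polr2H, Polr2K and Polr2L) all had estimates above 0, with a median of 0.18. Of these, 0 of 5 passed the edgeR test (0 at an unadjusted p under 0.05, and 0 with DESeq2 or limma-voom). The genotypes overlapped for all 5. Of all genes tested, 51.5% had estimates above 0, 36.9% were called and 53.6% did not overlap. Without w1118 replicate 1, 4 of the 5 shared subunits were above 0 and their median was 0.05. Polr2K, a small zinc-binding subunit of this kind, had the highest estimate among the subunits not called, with 12.6, 17.8 and 18.7 CPM in cdk8K185, against 12.2, 13.1 and 14.8 CPM in w1118 (0.30, edgeR adjusted p 0.213). Polr2J, which pairs with Polr2C at the base of the enzyme, had the lowest (-0.19, edgeR adjusted p 0.284).

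The kinases, cyclins and elongation factors held 4 called genes of 11 tested (36.4%, against 36.9% of all genes), CycH and Fcp1 higher and Cdk9 and CycK lower. Cdk9 (FBgn0019949, 2R:22636063-22637727, minus strand) encodes the kinase of P-TEFb, which releases paused polymerase. It gave 18.8, 19.6 and 19.3 CPM in cdk8K185, against 26.9, 26.5 and 25.8 CPM in w1118. The libraries of each genotype lay within a narrow band and the bands stood apart (log2 fold change -0.46 ± 0.09 as SE, edgeR adjusted p 0.00599). The call held when any 1 library was left out and was lost with library totals (log2 fold change -0.24, edgeR adjusted p 0.133). CycT, the cyclin that activates Cdk9, had 105, 98.4 and 93.9 CPM in cdk8K185, against 110, 95.4 and 83.0 CPM in w1118, overlapping ranges with an interval of -0.24 to 0.33.

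CycK (FBgn0025674, 2L:22124285-22130142, minus strand), the cyclin of Cdk12, had 44.3, 46.5 and 49.3 CPM in cdk8K185, against 52.2, 59.9 and 63.3 CPM in w1118. The genotypes did not overlap and the log2 fold change was -0.32 (SE 0.10, edgeR adjusted p 0.0434), the weakest call of the 10. It was lost on leaving out each library in turn except w1118 replicate 1 (edgeR adjusted p 0.0883 to 0.13), with a filter that kept any gene with a count (0.0726) and with library totals (0.509). Of its exon bases, 40.2% are shared with other annotated features, including a gene on the other strand. Cdk12, which phosphorylates the tail within gene bodies, averaged 72.4 ± 0.873 CPM in cdk8K185 and 70.2 ± 4.84 CPM in w1118 (SD, n = 3 each), with an interval of -0.16 to 0.25.

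Fcp1 (FBgn0035026, 2R:24567987-24571821, minus strand) encodes the phosphatase that strips the CTD so that the polymerase can start anew. Its levels were 26.2, 27.3 and 30.6 CPM in cdk8K185, against 20.2, 20.8 and 21.5 CPM in w1118. Each mutant library exceeded each control library (0.43 on the log2 scale, SE 0.10, edgeR adjusted p 0.0138), and the gene passed the threshold in all 13 alternatives. The DSIF subunits spt4 and Spt5, which hold the polymerase clamp closed, differed in estimate. For spt4, libraries of 8.78, 12.6 and 11.3 CPM in cdk8K185 and of 7.09, 8.53 and 9.80 CPM in w1118 gave 0.37 (SE 0.19, edgeR adjusted p 0.161), whereas Spt5 gave -0.01 with an interval of -0.24 to 0.22. Spt6, a histone chaperone of elongating polymerase and the most abundant of the machinery by CPM in cdk8K185, had 156, 144 and 158 CPM in cdk8K185, against 138, 129 and 119 CPM in w1118 (0.25, edgeR adjusted p 0.0782).

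CycH (FBgn0022936, 3L:21821997-21823309, plus strand) is the cyclin of Cdk7, the kinase of TFIIH, and Mat1 is the factor that holds this pair together. CycH had 17.2, 15.5 and 18.2 CPM in cdk8K185, against 12.9, 11.9 and 12.9 CPM in w1118. The ranges were apart (log2 fold change 0.43, SE 0.11, edgeR adjusted p 0.0215), but the call was lost with DESeq2 (adjusted p 0.0851) and without cdk8K185 replicate 1 (0.0717), cdk8K185 replicate 3 (0.075) or w1118 replicate 2 (0.0728). Cdk7 had 14.7, 13.996 and 21.3 CPM in cdk8K185, against 14.4, 12.7 and 14.9 CPM in w1118, so that cdk8K185 replicate 3 alone stood above the controls (0.26, SE 0.18, edgeR adjusted p 0.295). Mat1 gave an estimate of 0.30 (edgeR adjusted p 0.0984). The core of TFIIH, which opens the promoter DNA, is encoded by 7 genes outside the naming rule, of which Tfb5 had no counts. The 9 tested TFIIH genes, kinase part and core together, all had estimates above 0 with TMM scaling and in the 13 alternatives, with a median of 0.30, but CycH was the single call. Of all genes tested, 51.5% were above 0 and 36.9% were called. Library totals called 7 of the 9, beside 43.8% of all genes, and shifted all genes by a median of 0.22. The summed level of the TFIIH genes was 222, 231 and 250 CPM in cdk8K185, against 184, 202 and 182 CPM in w1118, without overlap. Among single genes, 53.6% of all tested did not overlap.

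Ratios of counts between partners within a library do not depend on the scaling between libraries. For 13 pairs of known partners, chosen with their values in view and so given without a test, the genotypes did not overlap in 8. For single genes in CPM, 53.6% did not overlap, and the share over other pairs of genes was not computed. A further pair, Polr2C to Polr2K, was drawn up and then left out. Cdk9, Taf6, Polr2B, CycK and MED21, each in one of the 8 pairs, are called genes whose own libraries already lay apart. Cdk9 had 0.178, 0.199 and 0.206 counts per count of CycT in cdk8K185, against 0.245, 0.278 and 0.311 in w1118. For Taf6 the ratio to Taf9 was 1.995, 2.13 and 1.95 in cdk8K185, against 2.94, 3.51 and 3.23 in w1118. Both ratios were lower in every mutant library than in every control library. In each pair one gene was called and its partner was not. Polr2A had 1.17, 0.972 and 1.06 counts per count of Polr2B in cdk8K185, against 1.65, 1.39 and 1.34 in w1118. TfIIEalpha had 1.97, 2.04 and 1.96 counts per count of TfIIEbeta in cdk8K185, against 1.13, 1.52 and 1.53 in w1118. In this last pair neither gene was called alone, and all mutant ratios were above all control ratios. The ratios of Cdk12 to CycK (mean 1.55 in cdk8K185 and 1.21 in w1118), of MED7 to MED21 (1.40 in cdk8K185 and 1.105 in w1118), of Taf10 to Taf10b (1.91 in cdk8K185 and 1.65 in w1118) and of Taf11 to Taf13 (0.882 in cdk8K185 and 1.15 in w1118) did not overlap either. Those of Cdk7 to CycH, TfIIFalpha to TfIIFbeta, TfIIA-L to TfIIA-S, Taf4 to Taf12 and spt4 to Spt5 overlapped. With 3 libraries against 3, no two-sided exact permutation test of such a ratio can go below 0.1.

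**Figure D3:**
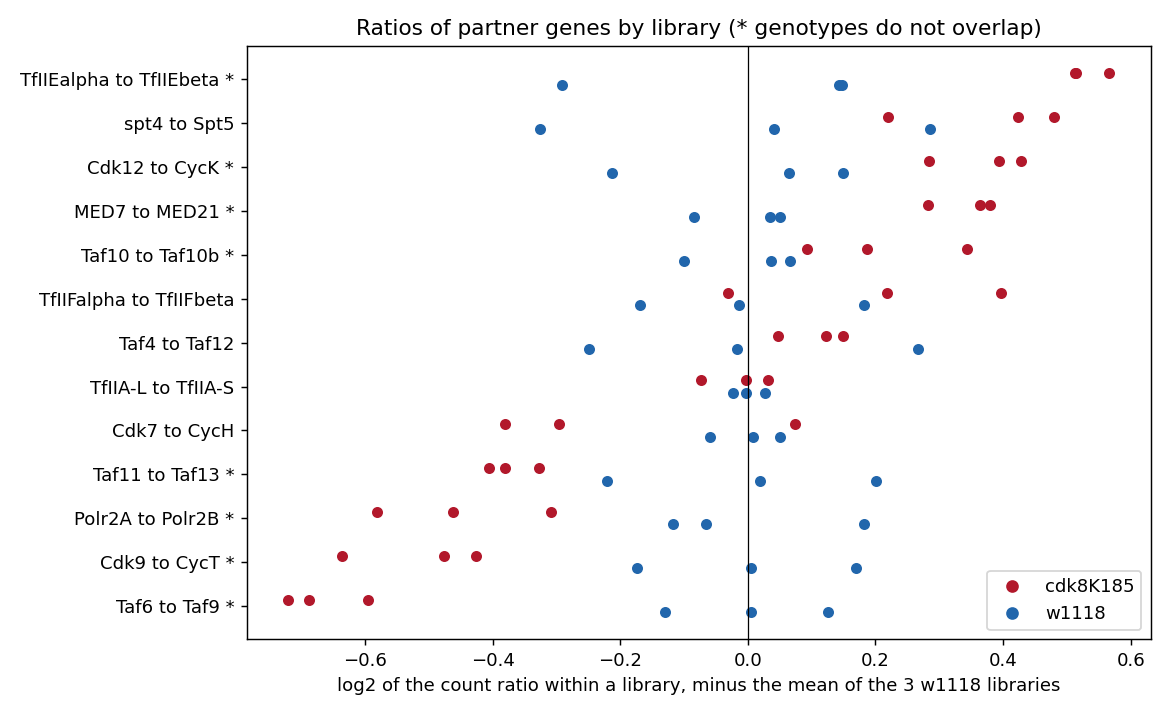
For 13 pairs of partner genes (rows), the log2 of the count ratio in each library minus the mean of the 3 w1118 libraries (x axis); red points are cdk8K185 and blue points w1118. The genotypes do not overlap in the 8 pairs with an asterisk, of which Taf6 to Taf9 lies furthest to the left and TfIIEalpha to TfIIEbeta furthest to the right.

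The subunits of a complex differed far more from each other than between the genotypes. Per kilobase of exon, the level of tested Mediator subunits ran from 6.1 to 32.8 CPM per kb in cdk8K185 and from 5.1 to 37.3 CPM per kb in w1118, with MED23 lowest and MED10 highest in w1118. Medians by complex were 12.5 CPM per kb in cdk8K185 and 12.7 in w1118 for Mediator, 15.9 in cdk8K185 and 15.5 in w1118 for TFIID and the TBP family, and 21.8 in cdk8K185 and 23.6 in w1118 for the general factors. They were 24.05 in cdk8K185 and 22.6 in w1118 for the polymerase, and 15.6 in cdk8K185 and 13.7 in w1118 for the kinase and elongation genes. The TFIIA subunits TfIIA-S (73.6 CPM per kb in cdk8K185 and 80.2 in w1118) and TfIIA-L (46.7 in cdk8K185 and 51.5 in w1118) were the most abundant per kb in both genotypes. Taf7 was the least abundant (5.21 CPM per kb in cdk8K185 and 4.24 in w1118). The spread of replicates around their mean had a median coefficient of variation over the 72 genes of 7.66% in cdk8K185 and 8.57% in w1118.

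The 3 genes under the filter had few or no counts. MED9, a middle subunit, had 0 counts in all 6 libraries, and all of its exon bases are shared on the same strand with CG42518, which was also listed at 0. Polr2D had 0 counts in all libraries too, and all of its exon bases are shared with Ada2a on the same strand, so a read from these bases fits both genes. Reads were counted for Ada2a, with 155, 138 and 159 counts in cdk8K185, against 96, 91 and 93 in w1118 (log2 fold change 0.52, edgeR adjusted p 0.0103). How reads in shared bases were counted is not given in the sources used here, so the level of Polr2D itself is not known. TfIIA-S-2, a relative of TfIIA-S, had 2, 5 and 0 counts in cdk8K185, against 5, 4 and 1 in w1118. In all, 38 of the 75 genes share exon bases with another annotated feature, mostly on the other strand. Of the 36 tested among them 4 were called, and of the 36 tested genes with no shared bases 6 were called, beside 36.9% of all genes tested. Calls were thus made among both.

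By position, called genes lay on 4 of the 6 chromosome arms that carry members of the machinery. On 3L, the arm of Cdk8, 2 were higher and 3 lower of 18 tested, beside 38.8% called of all genes tested on that arm. On 2L 1 was higher and 1 lower of 12 (34.9% of all genes there), on 2R 1 and 1 of 12 (38.9%), and on 3R 1 and 0 of 20 (35.9%). None of 8 tested genes on the X and of 2 on chromosome 4 was called in the edgeR test, beside 36.4% and 21.7% of all genes tested there, with 1 and 0 of these at an unadjusted p under 0.05 and 0 called by DESeq2 or limma-voom. The medians by arm ran from -0.06 on chromosome 4 to 0.12 on 2R.

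Related complexes were set beside the machinery, with lists drawn up when earlier results of these data were known. Of 69 such genes, 64 were tested, with 10 higher and 5 lower (23.4% called, against 36.9% of all genes). Both subunits of FACT, the histone chaperone of replication and transcription, were higher. Ssrp had 112, 116 and 119 CPM in cdk8K185, against 68.4, 76.0 and 68.7 CPM in w1118 (log2 fold change 0.70 ± 0.09 as SE, edgeR adjusted p 0.00108), and dre4 had 158, 174 and 177 CPM in cdk8K185, against 117, 113 and 102 CPM in w1118 (0.62, edgeR adjusted p 0.00305). Neither gene had overlapping libraries. Of RNA polymerase III, which makes transfer RNA and other small RNAs, 4 of 9 tested subunits were higher, among them the large subunit Polr3A (0.51) with Polr3B (0.37) and Polr3C (0.63). Of RNA polymerase I, which transcribes ribosomal RNA, the large subunit Polr1A alone was higher of 7 tested (0.62, edgeR adjusted p 0.00178), although all 7 estimates were above 0. Summed over its subunits, polymerase I was at 104 to 115.4 CPM in cdk8K185, against 79.6 to 79.9 CPM in w1118, and polymerase III at 161 to 168 CPM in cdk8K185, against 131 to 134 CPM in w1118. Neither sum overlapped between the genotypes.

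Of the elongation and coactivator lists, NELF, which holds paused polymerase, had 0 of 4 called, the PAF1 complex 1 of 4 (atms, 0.26, edgeR adjusted p 0.0497), and the super elongation complex with the factors that control P-TEFb 1 of 6 (lilli, -0.43, edgeR adjusted p 0.0326). In SAGA, a histone-modifying coactivator, the acetyltransferase Gcn5 was higher (0.47, edgeR adjusted p 0.0146) and the deubiquitinase not was lower (-0.60, edgeR adjusted p 0.0135), of 12 tested. None of 7 core promoter factors and none of 6 tested TFIIH core genes passed. For NELF 0 of 4, for the core promoter factors 1 of 7 and for the TFIIH core 4 of 6 were at an unadjusted edgeR p under 0.05. Of all 10632 genes tested, 5152 were under that limit. DESeq2 and limma-voom called 0 in these 3 lists. The testis TAFs, relatives of TFIID subunits used in the male germ line, had the largest changes in these lists. Taf12L gave 1.35, 1.27 and 1.38 CPM in cdk8K185, against 4.73, 5.85 and 2.48 CPM in w1118 (-1.70, edgeR adjusted p 0.0123). The gene sa was called lower, with 1, 0 and 0 counts in cdk8K185, against 18, 28 and 12 in w1118, and mia was higher (0.94, edgeR adjusted p 0.0152). The other genes of this list, can and nht, were under the filter and not tested. Counts of can were 3, 5 and 2 in cdk8K185, against 33, 40 and 6 in w1118. Those of nht were 1, 1 and 0 in cdk8K185, against 22, 24 and 6 in w1118. The 11 testis markers summed to 20.2 to 40.1 CPM in cdk8K185 and 28.4 to 106 CPM in w1118, with 1 higher and 2 lower of 6 tested (50.0% called, against 36.9% of all genes). That list also holds sa and mia, and the part of the testis in these differences was not tested.

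**Figure D4:**
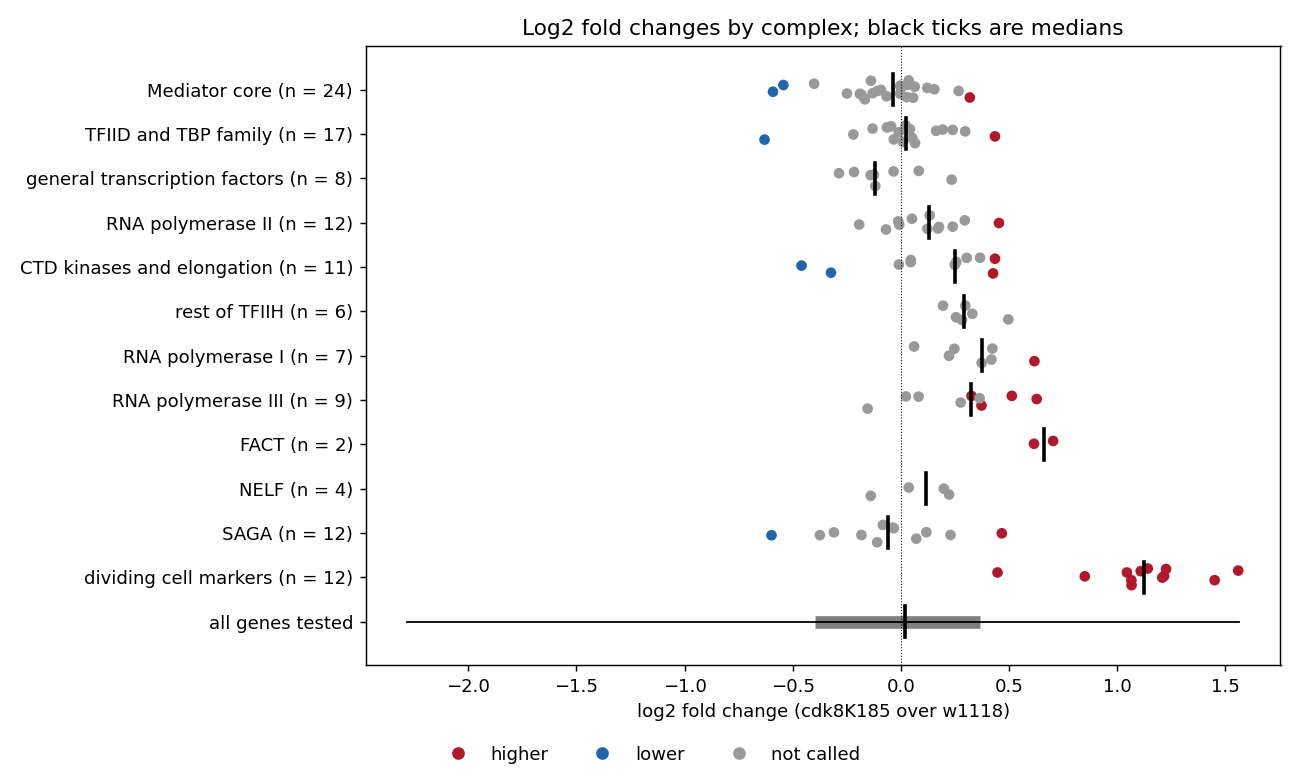
Log2 fold changes (x axis, cdk8K185 over w1118) of the tested genes of each complex and of the dividing cell markers, with 1 point for each gene (red higher, blue lower, grey not called) and the median as a black tick. The lowest row gives all 10632 genes tested, with the 5th to 95th percentile as a line and the middle 50% as a grey bar. The points of the Mediator core, TFIID, the general factors and polymerase II lie around 0, and the 12 dividing cell markers lie between 0.45 and 1.56.

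Libraries of a genotype differed from each other along gene length. Over the 72 tested genes, Spearman's rho between exon length and the log2 ratio of replicate 1 to replicate 3 was 0.56 in cdk8K185 and 0.71 in w1118, the highest of the 3 library pairs of each genotype, as a description over genes that share the same libraries. The other pairs gave 0.30 and 0.20 in cdk8K185 and 0.43 and 0.58 in w1118. Over all genes with an annotated length, the 3 pairs gave 0.01 to 0.11 in cdk8K185 and 0.17 to 0.43 in w1118. Of the 14 genes of the machinery over 4 kb, 13 were higher in w1118 replicate 1 than in w1118 replicate 3, against 9 of 40 under 1.5 kb. The coefficient of variation over the w1118 libraries had a median of 13.3% for those over 4 kb and 9.23% for those under 1.5 kb, but the widest spreads were those of the short genes Polr2L and Polr2F (24.2% each). Between the genotypes the relation was weak, with a rho of 0.10 over the 72 genes and 0.01 over all genes, and the genes over 4 kb (1 higher and 1 lower of 14) had a median log2 fold change of 0.03.

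**Figure D5:**
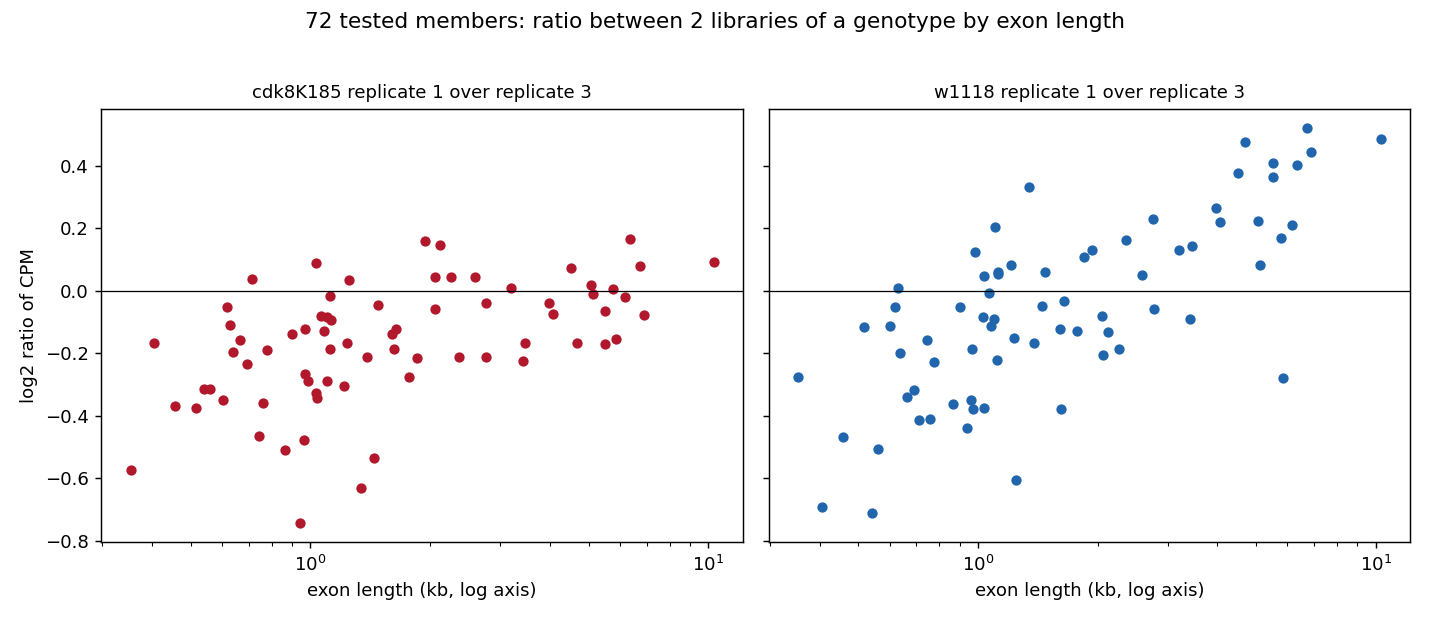
Log2 ratio of CPM between replicate 1 and replicate 3 of a genotype (y axis) against exon length in kb (x axis, log scale) for the 72 tested genes, with cdk8K185 on the left and w1118 on the right. In w1118, 13 of the 14 genes over 4 kb lie above 0.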

How the data were processed

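Total RNA of pools of 10 larvae was made into 3 libraries for each genotype. The authors deposited 1 table of raw read counts, whole numbers per gene and library, not normalized. The submitters' processing notes name STAR, featureCounts, DESeq2 and the build dm6 and give no versions. Which gene models were counted, and whether strand was used, is not given in the sources used here. Of 17562 identifiers, 17477 matched the Ensembl BDGP6.54 annotation (release 115), which gave symbols, 1-based coordinates and exon lengths. The 85 others held 0.313% of the counts.

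Counts of all genes were fitted with edgeR 4.0.16 (limma 3.58.1, R 4.3.3), with filterByExpr (minimum count 10, minimum total 15), TMM factors and a robust quasi-likelihood model with genotype as its term. Tests were two-sided, and a gene was called at a Benjamini-Hochberg adjusted p under 0.05 over 10632 genes. The SE is the absolute log2 fold change over the square root of F, and 95% intervals use the t distribution with the total degrees of freedom. CPM are on TMM-scaled library sizes. No 2 libraries of a genotype agreed within sampling noise (chi-square per degree of freedom 19.0 to 47.3). Alternatives were DESeq2 1.42.0, limma-voom, RLE size factors, library totals, a filter keeping any gene with a count, a filter of at least 10 counts in each library, a block for replicate number, and fits without 1 library.

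The genes and all lists were chosen with earlier results of these data known. Named with statistics are the called genes, the extremes of each complex among the others, and Trf2, Cdk7, Cdk9, Polr2A, Tbp, MED14 and MED17, while partner genes, TFIIH genes and further examples were picked after their values were seen. At most 3 called genes of each related complex are named. Promoter and protein sequences were not used here. Python 3.11.15, pandas 2.3.3 and matplotlib 3.10.9 made tables and figures.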

Additional observations from a re-analysis of the deposited data

How the results depend on the processing

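Over 13 alternatives, the 10 counts and medians of the report kept a value within 1.5 times or 1 SD in 119 refits and moved in 11. Library totals moved most, by construction, since they shift all genes by a median log2 fold change of 0.22. They gave 13 calls of the machinery (12 higher, 1 lower), 1 in Mediator, 5 in TFIID and the TBP family, 1 among the general factors and 27 among the 64 related genes, and moved the machinery's median to 0.23. RLE size factors called 1 general factor. Leaving out 1 library gave 6 to 11 calls over the machinery, with 6 without cdk8K185 replicate 1, 0 to 4 in Mediator (0 without cdk8K185 replicate 1 and 1 without w1118 replicate 3), and 2 to 4 among the kinase and elongation genes (2 without cdk8K185 replicate 3 or w1118 replicate 2); the cause was not tested. DESeq2 called 8 genes of the machinery and limma-voom 10. The named genes kept their side of the threshold in 306 refits, lost a call in 23, gained one in 9 and reversed in 0.

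The replicate numbers were not used to pair the libraries in the main fit. The deviations of same-numbered libraries correlated at -0.19 for replicate 1, 0.51 for replicate 2 and 0.56 for replicate 3. Whether same-numbered libraries shared their handling was not tested. A fit with the replicate block called 10 genes of the machinery (5 higher, 5 lower) and 3988 of all genes (1906 higher, 2082 lower). Counts under about 10 in all 6 libraries, as for MED9, Polr2D and TfIIA-S-2, allow no statement on a difference. For sa, with 1, 0 and 0 counts in cdk8K185, the direction was called but the size of the change is uncertain. Transcript levels say nothing of protein or phosphorylation, which were not measured in these libraries.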
